A study of Arabidopsis thaliana with 20 samples.

Results

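Protein occupancy of the plastid genome of the ptac3 mutant of Arabidopsis thaliana was described from 6 sequencing libraries out of the 20 of the series, chosen by their titles as the 3 IPOD and the 3 input libraries of ptac3 seedlings. IPOD (in vivo protein occupancy display) crosslinks proteins to DNA and recovers the protein-bound fragments, and the input is the same kind of DNA without that recovery. Each sample was 50 seedlings of 4 to 5 days, homozygosity and allele not given in the labels, grown on plates under continuous light and crosslinked whole with 4% formaldehyde for 4 h before chloroplasts were enriched. The ptac3 libraries also carry the words wild type in their genotype field and were assigned by title and line name. The libraries used beside them were 3 IPOD and 3 input libraries of Col-0 seedlings, the wild-type accession, treated in the same way. The labels of the third Col-0 IPOD library disagree, with Col-0 in the title and ptac3 as the line name; the title was followed. No label names the cultures behind the replicates, so every p-value below measures the spread between these libraries, which may be technical.

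Plastid genes are read by a bacterial-type RNA polymerase whose core subunits (rpoA, rpoB, rpoC1 and rpoC2) are plastid genes, and by phage-type polymerases encoded in the nucleus. PTAC3 is a nuclear-encoded protein found with the plastid-encoded polymerase in the transcriptionally active fraction of plastid chromosomes, and mutants lacking it are pale. Genes for photosynthesis proteins, rRNAs and most tRNAs are mainly read by the plastid-encoded polymerase, whereas accD and the rpoB operon are read by the nuclear-encoded enzymes. Because the files cover plastid DNA, neither the mutated gene nor markers of the tissue could be checked in them. The comparison asked which positions are over- or under-represented among protein-bound fragments when PTAC3 is missing.

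The values were reads over each base, divided by the mean of the library, so that a depth of 1 is the genome average and levels of different genes can be compared per base. A change of occupancy shared by the whole plastid genome cancels in this scale and would not be seen. Over the whole plastid genome, ptac3 IPOD libraries 1 to 3 averaged 132, 330 and 166 reads per base and their inputs 120, 325 and 199.95. On this measure the Col-0 libraries ranged from 113 to 441. The mean used for scaling left out the second copy of the inverted repeat. It was 119, 308 and 157 in ptac3 IPOD and 106, 301 and 188 in ptac3 input. Library 1 differed from libraries 2 and 3 in both ptac3 fractions: the 99th percentile of its scaled depth was 3.98 in IPOD and 4.23 in input, against 2.37 to 2.76. The Col-0 libraries had 3.00 to 5.14, so ptac3 library 1 lay within the Col-0 range and ptac3 libraries 2 and 3 lay below it. The log2 depth of an IPOD and an input library of ptac3 correlated over the 2564 bins of 50 bp with Pearson's r between 0.908 and 0.976, and input libraries correlated with each other with r between 0.935 and 0.969. Neighbouring bins share reads, so these r are descriptions.

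No bin and no gene differed between ptac3 IPOD and input past the test's threshold. limma called 0 of 2564 bins (0.0%) and 0 of 112 genes (0.0%) at a Benjamini-Hochberg adjusted p under 0.05. At an unadjusted p under 0.05 it gave 32 bins above input and 14 below (together 1.79% of bins), and 4 genes above and 1 below (4.46% of genes). In the same fit Col-0 seedlings had 83 called bins (3.24%), 54 above and 29 below input, and 12 called genes (10.7%), 8 above and 4 below. The Col-0 gene count was 4 to 6 without Col-0 input library 1, 2 or 3 or Col-0 IPOD library 1 or 2. It was 9 above and 1 below with every library centred on its median bin. With the library number as a block in the fit, ptac3 still had 0 called bins and 0 called genes, while the unadjusted counts became 199 bins above and 91 below, and 10 genes above and 5 below. With the same centring, the unadjusted split of bins in ptac3 was 23 above and 41 below, again with 0 called.

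The fit also gave an interval for each ratio, under a spread shared by both genotypes. The log2 ratios of genes in ptac3 ran from -0.21 to 0.25 with a median of 0.03, against -0.28 to 0.91 in Col-0. The median 95% interval reached 0.19 to either side of a gene's ratio. It lay wholly within 0.5 of 0 for 103 of 112 genes (92.0%), within 0.25 for 51 genes and within 1 for all 112. Bin ratios ran from -0.40 to 0.45. None of the 2564 mean bin ratios in ptac3 was beyond 0.5, compared with 102 in Col-0. These intervals are per gene and not adjusted for their number. Their width comes from the spread of all 12 seedling libraries without a block, and the ptac3 libraries were less alike than the Col-0 ones. Over bins, r was 0.929 to 0.965 between ptac3 IPOD libraries and 0.965 to 0.972 between Col-0 IPOD libraries. The intervals may therefore be too narrow for ptac3. They may also be too wide where IPOD and input libraries of the same number deviate together, because without a block that shared part stays in the spread. With the ptac3 libraries alone and no block, limma gave an unadjusted p under 0.05 for 5 bins above and 6 below input, and for 0 genes. Adding the block to these libraries gave 232 bins above and 106 below, and 13 genes above and 7 below, with 0 called.

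**Figure D1:**
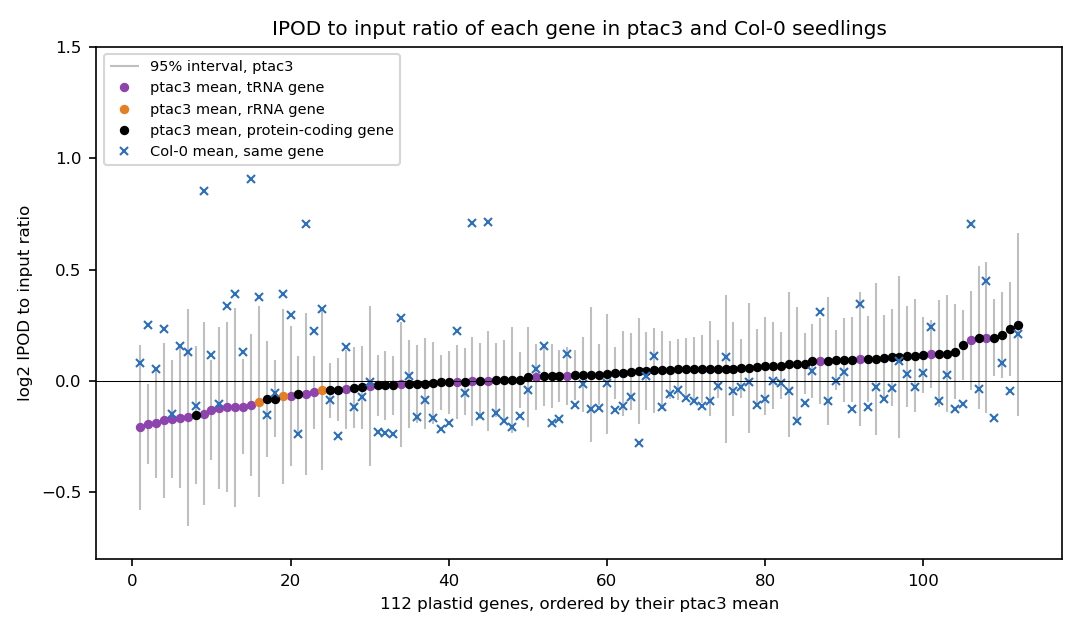
Mean log2 IPOD to input ratio of 112 plastid genes in ptac3 (dots, coloured by gene type, with the 95% interval of the limma fit as grey lines), ordered from lowest to highest, with the Col-0 mean of the same gene as blue crosses. The ptac3 means stay between -0.21 and 0.25, while Col-0 means of single tRNA genes reach 0.91.

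The IPOD to input ratio also varied less along the genome in ptac3. For each IPOD library set against the input of the same number, the SD of the log2 ratio over bins was 0.225, 0.141 and 0.190 in ptac3 and 0.312, 0.308 and 0.234 in Col-0. The mean was 0.185 ± 0.042 (SD, n = 3) in ptac3 and 0.285 ± 0.044 (SD, n = 3) in Col-0, and each ptac3 pair lay below each Col-0 pair. The two-sided exact permutation test gave p = 0.1, which is the smallest value that 3 against 3 allows. With each IPOD library set against the mean input of its genotype, the genotype difference was -0.065 in place of -0.099 and the exact p was 0.2, so the groups then overlapped.

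How much of that remaining variation exceeded counting noise was read from the inverted repeat, whose 2 copies give separate depths for the same DNA. Over 525 bins of the repeat the variance of the ptac3 ratio was 1.68, 2.06 and 1.76 times the variance between copies in pairs 1 to 3. In Col-0 it was 6.24, 13.6 and 3.71 times. The ratio profiles of both copies correlated with r of 0.410, 0.472 and 0.491 in the ptac3 pairs and 0.840, 0.924 and 0.731 in Col-0. These ratios, and those compared between pairs below, were set only against the input of the same number, in both genotypes. How reads matching both copies were placed is not given in the sources used here, and this sets the size of the noise estimate in both genotypes.

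**Figure D2:**
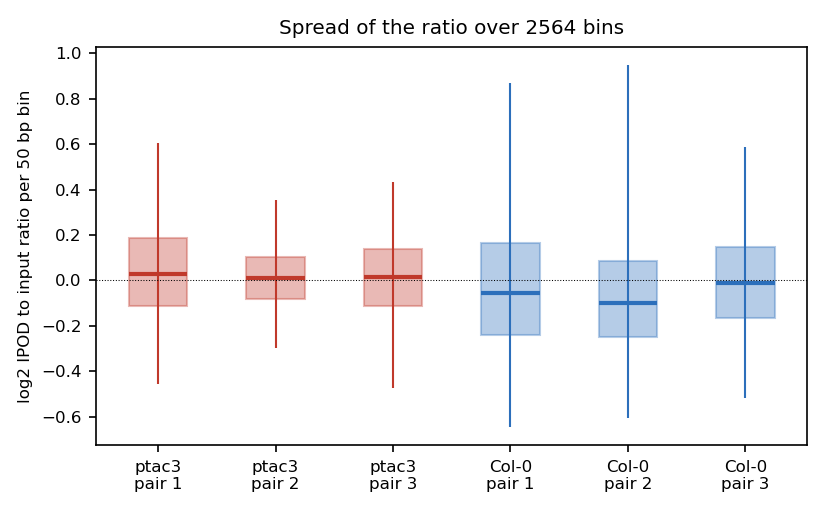
log2 IPOD to input ratio per 50 bp bin in each same-numbered library pair, over 2564 bins. Boxes span the 25th to 75th percentile with the median as a thick line, and thin lines run from the 1st to the 99th percentile; the ptac3 pairs (red) have SDs of 0.141 to 0.225 and the Col-0 pairs (blue) 0.234 to 0.312.

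The ratio profiles of different ptac3 pairs were also less alike than those of Col-0. Over bins, r between ptac3 pairs was 0.275, 0.176 and 0.160, against 0.672, 0.539 and 0.559 between Col-0 pairs. Over the 112 genes it was 0.269, 0.291 and 0.370 in ptac3 and 0.870, 0.766 and 0.716 in Col-0. The mean ptac3 profile and the mean Col-0 profile, which share no library, had an r of 0.16 over bins and -0.18 over genes. ptac3 pair 3 differed from pairs 1 and 2 in that its gene profile had a negative r with each Col-0 pair, between -0.46 and -0.25. In ptac3 the 2 fractions were fully separated at 6 genes (5.36% of genes), 5 with IPOD above input, and in Col-0 at 51 genes (45.5%). Such a separation also depends on how alike the libraries of a fraction are. Input libraries correlated over bins with r of 0.935 to 0.969 in ptac3 and 0.968 to 0.978 in Col-0, and IPOD libraries were likewise less alike in ptac3. What this adds to the difference in counts was not tested.

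Transfer RNA genes were the 8 genes called above input in Col-0 seedlings, and 0 of the 30 were called in ptac3. Of the 54 bins called above input in Col-0, 19 overlapped a tRNA gene by 25 bp or more, 1 an rRNA gene and 34 no gene to that extent. The median log2 ratio of the 30 tRNA genes was -0.06 in ptac3 and 0.24 in Col-0, beside 0.03 and -0.04 over all 112 genes. In ptac3, 22 of the 30 were below 0 in the mean and 10 were below 0 in 3 of 3 pairs, compared with 15 of all 112 genes (13.4%), while 8 were above 0 and 3 were so in every pair, namely ArthCt100 (0.19), trnG (ArthCt116) (0.18) and trnY (0.12). Each of the 30 had a lower mean ratio in ptac3 than in Col-0, with library centring as well as without it. For 19 of the 30 (63.3%) the 95% interval of the ptac3 ratio excluded the Col-0 mean, compared with 48 of all 112 genes (42.9%). That count leaves out the error of the Col-0 mean, and 3 tRNA genes passed the test of the genotype difference itself. tRNA genes took 8.88%, 7.88% and 7.44% of the depth in ptac3 IPOD libraries 1 to 3 and 9.07%, 8.16% and 7.80% in the inputs, from 6.38% of the positions.

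Lined up on the middle of 23 tRNA genes shorter than 100 bp, the Col-0 ratio formed a peak around the gene, and ptac3 had none. At the gene middle the ptac3 pairs had mean log2 ratios of 0.028, -0.053 and -0.141, a mean of -0.056 ± 0.084 (SD, n = 3). Col-0 pairs had 0.338, 0.445 and 0.229, a mean of 0.337 ± 0.108 (SD, n = 3). The Col-0 peak was broad and lopsided, with means of 0.345 at +50 bp, 0.185 at +200 bp and 0.077 at -200 bp. At 500 bp and more from the middle, the mean was 0.022 in ptac3 and 0.0087 in Col-0. The tRNA gene within 1000 bp of the end of the numbering, 1 of 24 such genes, was left out of this profile.

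**Figure D3:**
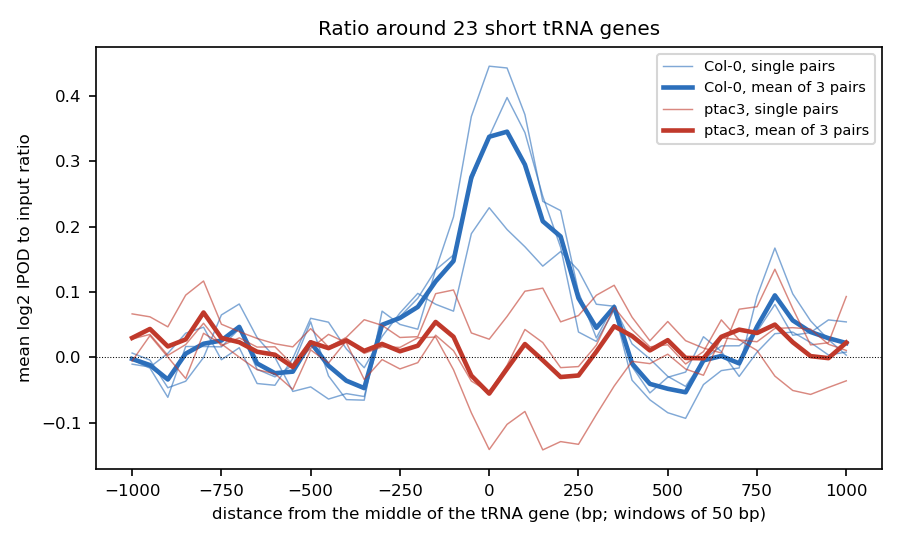
Mean log2 IPOD to input ratio in 50 bp windows up to 1000 bp on either side of the middle of 23 short tRNA genes, in the direction of the genome numbering and without regard to strand. Thin lines are single library pairs and thick lines their means; at the middle Col-0 (blue) reaches a mean of 0.337 and ptac3 (red) -0.056.

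The largest genotype difference was at trnQ, the gene for a glutamine tRNA. Its depth was 1.78, 1.56 and 1.37 times the library mean in ptac3 IPOD and 1.85, 1.59 and 1.65 in ptac3 input. In Col-0 it was 4.74, 4.59 and 3.13 in IPOD and 2.37, 1.99 and 2.08 in input. The Col-0 IPOD libraries thus stood clear of every other library, the ptac3 fractions overlapped, and the ptac3 inputs were also lower than the Col-0 inputs. The log2 ratio was -0.11 ± 0.15 (SE, 95% interval -0.43 to 0.21) in ptac3 and 0.91 ± 0.15 in Col-0, a difference of -1.01 (limma, adjusted p = 0.0158).

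trnT, for a threonine tRNA, had a depth of 0.901, 0.858 and 0.719 in ptac3 IPOD and 0.847, 0.830 and 0.792 in ptac3 input. Col-0 IPOD had 1.54, 1.76 and 1.39 over inputs of 0.927, 0.915 and 0.913. The ptac3 fractions again overlapped, with a log2 ratio of 0.00 (95% interval -0.20 to 0.20), and the difference from Col-0 was -0.71 (limma, adjusted p = 0.0158). trnM, for a methionine tRNA used in elongation, had 0.596, 0.739 and 0.683 in ptac3 IPOD and 0.583, 0.707 and 0.728 in ptac3 input. Its Col-0 libraries held 0.898, 1.10 and 0.937 in IPOD and 0.545, 0.531 and 0.611 in input. The ptac3 ratio of trnM was 0.00 (95% interval -0.22 to 0.23) and the difference was -0.71 (limma, adjusted p = 0.0158).

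These were the 3 genes called for the genotype difference (2.68% of 112 genes), all lower in ptac3, and 0 of 2564 bins were called (0.0%; an unadjusted p under 0.05 was found for 8.39% of bins, 109 higher in ptac3 and 106 lower). Without ptac3 pair 3, the pair whose tRNA ratios were lowest, 0 genes were called, with differences of -0.94, -0.65 and -0.67 for trnQ, trnT and trnM. Leaving out ptac3 input library 2 alone also gave 0 genes, and leaving out ptac3 input library 3 or Col-0 IPOD library 2 gave 1 each. Without ptac3 IPOD library 1 or Col-0 IPOD library 3 the count was 10 and 7. With the library number as a block, 26 genes were called, 10 higher and 16 lower, and 197 bins, 48 higher and 149 lower. The equal numbers deviated together clearly in ptac3 pairs 1 and 3, and weakly or not at all in the other pairs. The block is therefore given as an alternative here. Centring moved the median genotype difference of genes by -0.12, and the difference at trnQ was then -1.13 (limma, adjusted p = 0.0565). With centring 3 genes were still called, all lower in ptac3 (lowest adjusted p 0.0036, limma), but trnQ was not among them.

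The other tRNA genes called in Col-0 differed in how much of their ratio was seen in ptac3, and none of their genotype differences passed the threshold. trnG (ArthCt116), for a glycine tRNA and named with its locus tag because the symbol is shared, had the highest ptac3 ratio of these, 0.18 (95% interval -0.04 to 0.40), against 0.71 in Col-0 (difference -0.52, limma, adjusted p = 0.0667). Its depth was 1.39, 1.13 and 1.21 in ptac3 IPOD and 1.12, 0.972 and 1.16 in ptac3 input, so the ratio was above 0 in 3 of 3 pairs although the groups overlapped. trnL (Arthct122), for a leucine tRNA, had 1.85, 1.33 and 1.33 in ptac3 IPOD and 1.71, 1.47 and 1.79 in input. Its ratio was -0.15 in ptac3 and 0.85 in Col-0 (difference adjusted p = 0.0633, limma), and ptac3 pair 1 was above 0 while pairs 2 and 3 were below.

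trnP, for a proline tRNA, had 1.98, 1.82 and 1.32 in ptac3 IPOD over 1.82, 1.78 and 1.66 in input, a ratio of -0.06 against 0.71 in Col-0 (difference adjusted p = 0.108, limma). The tyrosine tRNA gene trnY had a ratio of 0.12 in ptac3 and of 0.24 in Col-0, the lowest Col-0 ratio of the 8 genes. It was above 0 in each ptac3 pair, at 0.133, 0.165 and 0.066. The valine tRNA gene trnV (Arthct121), upstream of the rRNA operon, had 0.09 in ptac3, where pair 1 alone was above 0, and 0.31 in Col-0. The genotype differences of trnY and trnV (Arthct121) had adjusted p of 0.438 and 0.341 by limma.

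**Figure D4:**
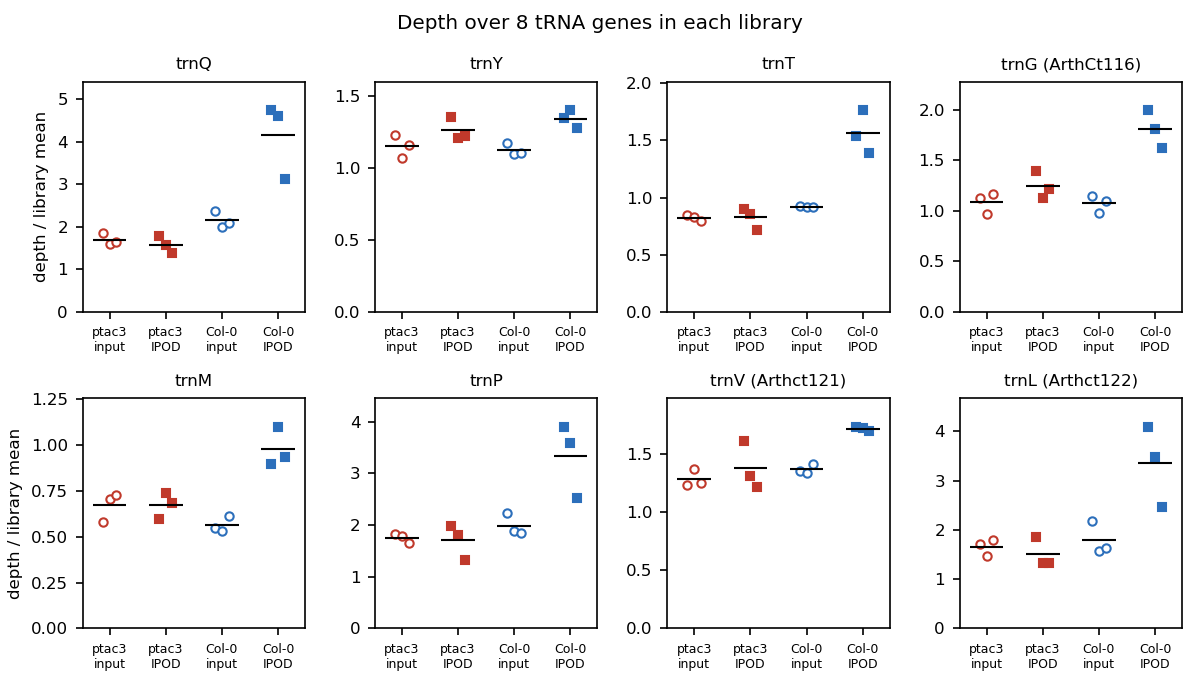
Depth over the 8 tRNA genes called in Col-0 seedlings, as a multiple of the mean depth of the library, in each ptac3 (red) and Col-0 (blue) library, with input as open circles, IPOD as filled squares and the group mean as a line. At trnQ the Col-0 IPOD libraries reach 3.13 to 4.74, while ptac3 IPOD libraries lie between 1.37 and 1.78.

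The lowest ptac3 ratios that had one sign in 3 of 3 pairs were also at tRNA genes, and none passed the threshold (limma, adjusted p = 0.947 for each). trnH, for a histidine tRNA, had 0.536, 0.406 and 0.295 in IPOD and 0.589, 0.449 and 0.412 in input, a log2 ratio of -0.21. The serine tRNA gene trnS (ArthCt117) was the gene whose IPOD libraries all lay below its inputs, at 1.08, 1.02 and 0.967 against 1.09, 1.28 and 1.19. Its ratio was -0.19 (unadjusted p = 0.0362), and it was 0.25 in Col-0, where IPOD libraries lay above input. A second serine tRNA gene, trnS (ArthCt125), had -0.19, trnfM, for the initiator tRNA, had -0.18, and trnF, for a phenylalanine tRNA, had -0.16.

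The rRNA genes, which take more depth per base than any other class here, were not above input in ptac3. rrn16S, the RNA of the small ribosomal subunit, had 3.14, 2.28 and 2.05 in ptac3 IPOD and 3.36, 2.30 and 2.22 in ptac3 input, lower in IPOD in each pair by a log2 ratio of -0.07 in the mean. Col-0 had 4.07, 3.52 and 3.47 in IPOD over 3.15, 2.36 and 2.90 in input, a ratio of 0.39. rrn23S, of the large subunit, had a ratio of -0.09 in ptac3 and 0.38 in Col-0, and rrn4.5S had -0.04 and 0.32. None of the genotype differences passed the threshold (rrn16S -0.46 and rrn23S -0.47, limma, adjusted p = 0.341 for both). Both fractions of ptac3 library 1 held more rRNA gene depth than libraries 2 and 3: 11.4%, 8.06% and 6.97% of IPOD depth and 12.02%, 8.24% and 7.78% of input depth. Over 22 alternatives the ptac3 ratio of rrn16S ran from -0.24 to 0.12.

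Photosynthesis genes were close to input. The 15 photosystem II genes had a median of 0.07, the 7 photosystem I genes 0.03, the 6 cytochrome b6f genes 0.07 and the 6 ATP synthase genes 0.00, with 0 called in each class. psbA, for the D1 reaction centre protein of photosystem II, had 1.20, 1.28 and 1.11 in ptac3 IPOD and 1.22, 1.19 and 1.13 in input, a ratio of 0.02 (95% interval -0.11 to 0.15), and 0.16 in Col-0. psbD, for the D2 protein, had 1.22, 1.22 and 1.23 in IPOD and 1.17, 1.20 and 1.16 in input. Its libraries did not overlap, yet the ratio was 0.05 (limma, adjusted p = 0.947). The ratio was 0.03 for psaA, which encodes a core protein of photosystem I, 0.00 for psbB, which encodes a core antenna protein of photosystem II, and -0.01 for atpB, for the beta subunit of ATP synthase. rbcL, for the large subunit of Rubisco, had 1.69, 1.47 and 1.41 in IPOD and 1.71, 1.53 and 1.37 in input, a ratio of -0.01 (95% interval -0.21 to 0.18). Centring turned the direction of the psbA, psaA and psbB values and of the photosystem I median, all of which then lay slightly below 0.

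The NDH genes, which encode a complex of cyclic electron transport, had 0 of 11 genes called, and 0 at an unadjusted p under 0.05. Their median was 0.09, and 10 of the 11 were above 0 in 3 of 3 pairs, compared with 32 of all 112 genes (28.6%). With centred libraries the median was 0.04 and 4 of the 11 were above 0 in each pair, beside 11 of 112 genes. The exception was ndhB, the member in the inverted repeat, with -0.04 and all 3 pairs below 0. By part of the genome, the median bin ratio was 0.07 over 356 bins of the small single-copy region, where several ndh genes lie, 0.03 over 1684 bins of the large single-copy region and -0.04 over 524 bins of the inverted repeat. After centring these medians were 0.02, -0.02 and -0.08, 0 bins were called in any of the parts, and the parts were not tested against each other.

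**Figure D5:**
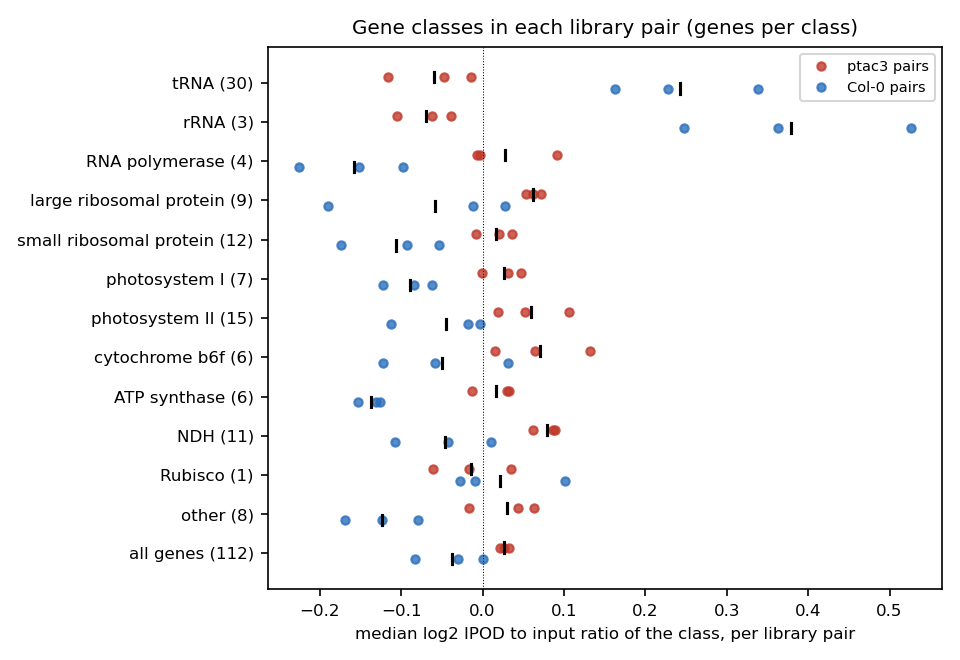
Median log2 IPOD to input ratio of each gene class in each ptac3 (red) and Col-0 (blue) library pair, with the mean of 3 pairs as a black tick and the number of genes in parentheses. In ptac3 each class mean lies within 0.1 of 0, and the tRNA and rRNA classes are on the lower side in each pair, whereas they have the highest medians in Col-0.

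Genes for the polymerase and for translation were also near input. The 4 rpo genes had a median of 0.03 in ptac3 and -0.15 in Col-0, where 0 of them were called and each was below 0. rpoB, for the beta subunit of the plastid-encoded polymerase, had 1.07, 1.10 and 1.07 in ptac3 IPOD and 1.05, 1.10 and 1.00 in input, a ratio of 0.03. accD, for a subunit of acetyl-CoA carboxylase, had 0.733, 0.873 and 0.923 in IPOD and 0.795, 0.847 and 0.939 in input, a ratio of -0.03. The 4 genes listed here as read by the nuclear-encoded polymerase (accD, rpoB, rpoC1 and rpoC2), a list that need not be complete, had a median of 0.01, and -0.04 after centring. clpP, for a protease subunit, had 0.05. The 9 genes for large and the 12 for small ribosomal proteins had medians of 0.06 and 0.03, and the 8 remaining genes 0.03. Centring put the medians of the rpo, small ribosomal protein and remaining genes slightly below 0, at -0.02, -0.02 and -0.01, and rpoB with them. Over the 79 protein-coding genes the median was 0.05, with 60 above 0, and it was 0.00 with 42 above 0 after centring. In Col-0 it was -0.09, and 73 of the 79 had a higher ratio in ptac3 than in Col-0, a count that was 46 after centring.

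The 5 highest ptac3 gene ratios that had one sign in each pair belonged to 4 small protein genes and 1 tRNA gene, again with adjusted p = 0.947 (limma) for each. petL, for a small subunit of the cytochrome b6f complex, had 0.484, 0.607 and 0.714 in IPOD and 0.338, 0.547 and 0.610 in input, a ratio of 0.25 with a 95% interval from -0.16 to 0.66, and 0.21 in Col-0. psaJ, for a small photosystem I subunit, had 0.653, 0.739 and 0.749 over 0.508, 0.609 and 0.673, a ratio of 0.23 (unadjusted p = 0.0326), against -0.04 in Col-0. rpl36, a protein of the large ribosomal subunit, had 0.21 (unadjusted p = 0.0384) and psbZ, a small photosystem II protein, had 0.19 (unadjusted p = 0.0318). ArthCt100, a tRNA gene for which the gene table gives no symbol, had 1.79, 1.59 and 1.52 in IPOD over 1.46, 1.48 and 1.31 in input, a ratio of 0.19, and its groups did not overlap. Most of these genes lay near or below the genome average in depth.

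At the scale of 50 bp the ptac3 ratio kept the direction of Col-0 on the depleted side more often than on the enriched side. Of the 29 bins called below input in Col-0, 28 (96.6%) also had a ptac3 mean below 0, compared with 44.3% of all 2564 bins. Of the 54 bins called above input in Col-0, 30 (55.6%) were above 0 in ptac3, compared with 55.7% of all bins. The depleted bins had a median of -0.49 in Col-0 and of -0.10 in ptac3, with pair medians of -0.17, -0.13 and -0.08. The enriched bins had a median of 0.74 in Col-0 and of 0.04 in ptac3, with pair medians of 0.09, 0.03 and -0.02. Joined into runs of neighbours, 17 of 17 depleted runs were below 0 in ptac3 and 11 of 21 enriched runs were above 0. Each of the 83 bins had a ratio of smaller size in ptac3 than in Col-0. After centring 29 of 29 depleted bins were below 0 and 22 of 54 enriched bins above it. The 2 genotypes share no library, and no test was made of these shares. The choice of bins rests on single Col-0 libraries: without one of them in turn, 7 to 67 bins were called in Col-0, of which 0 to 14 were below input. The lowest of these counts came without Col-0 IPOD library 2. With centring the fit called 82 bins above and 14 below input in Col-0. Of the 29 depleted bins, 15 were in the 20% of bins with the highest Col-0 input depth, whose median was -0.07 in ptac3 and below 0 in each pair, at -0.079, -0.050 and -0.075. The part of input depth in this direction was not tested.

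The depleted runs lay in rpoC1, rpoC2, petG, ycf2, ndhB and ycf1 and between genes. The run between ndhB and rps7, at 97251 to 97400 of the plastid genome (TAIR10), had -0.51 in Col-0 and -0.21 in ptac3, with ptac3 pairs at -0.35, -0.15 and -0.13 (lowest unadjusted p of its bins 0.0162, limma, adjusted p = 0.997). The run in rpoC1 at 22551 to 22650 had -0.50 in Col-0 and -0.16 in ptac3, and all ptac3 pairs were below 0. Among the genes, ndhB, ycf2, psaC (an iron-sulphur protein of photosystem I) and rpl2 (a large-subunit ribosomal protein) were called below input in Col-0, at -0.25, -0.24, -0.23 and -0.22. In ptac3 they had -0.04, -0.02, -0.02 and -0.01. These Col-0 calls rest on single libraries and on the scaling. Without Col-0 IPOD library 1 or 2, or any 1 of the Col-0 input libraries, 0 genes were called below input in Col-0. With centring 1 gene was.

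On the enriched side, 4 of the 21 runs stood above 0 in each ptac3 pair with a mean beyond 0.1. The run at 36451 to 36600 over trnG (ArthCt116) had 0.68 in Col-0 and 0.28 in ptac3, with pairs at 0.37, 0.27 and 0.20. The run at 100751 to 101050, over the end of trnV (Arthct121) and the start of rrn16S, had 0.85 in Col-0 and 0.15 in ptac3, with pairs at 0.13, 0.14 and 0.18. A run of 2 bins at trnG (ArthCt092), from 8601 to 8700, had 0.91 and 0.21, and its ptac3 pairs were 0.30, 0.32 and 0.01. A single bin between trnN and a fragment of ycf1, from 109201 to 109250, had 0.50 and 0.23, with ptac3 pairs at 0.47, 0.17 and 0.05. The longest run of all, 11 bins over trnL (ArthCt101) from 47401 to 47950, had 0.74 in Col-0 and 0.02 in ptac3.

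The bin with the lowest unadjusted p in that trnG (ArthCt116) run, 36451 to 36500, had a depth of 0.838, 0.807 and 0.900 in ptac3 IPOD and 0.540, 0.610 and 0.665 in ptac3 input. Its groups did not overlap and its log2 ratio was 0.44 in ptac3 (unadjusted p = 0.00157, limma, adjusted p = 0.997) and 0.73 in Col-0. The strongest other stretches above input in ptac3 were inside protein-coding genes. They were 75101 to 75250 in petB (0.34), 44251 to 44350 in ycf3 (0.36), 40701 to 40800 in psaA (0.36) and 16651 to 16700 in rpoC2 (0.45), with Col-0 ratios of -0.12, 0.20, 0.10 and -0.13. Of the 32 bins above input at an unadjusted p under 0.05 (1.25% of bins), 28 lay in protein-coding genes (87.5%, beside 59.6% of all bins), 4 were intergenic and none overlapped an rRNA or tRNA gene by 25 bp or more. They made 28 separate stretches, 25 of them of 1 bin. In this fit without a block, bins past the unadjusted threshold in either direction were 1.79% of all bins, a smaller share than the threshold of 0.05 itself. With the library number as a block they were 199 above and 91 below input, a larger share than 0.05, with 0 called. Centring without a block changed the split over all bins to 23 above and 41 below input. The median ptac3 ratio of protein-coding bins was 0.043, and -0.003 after centring.

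The strongest stretches below input in ptac3 were single bins. The bin at 26801 to 26850, between rpoB and trnC, had 0.338, 0.491 and 0.507 in IPOD and 0.588, 0.584 and 0.642 in input, with no overlap. Its ratio was -0.39 in ptac3 and -0.41 in Col-0. The bins at 71451 to 71500 in clpP and 22401 to 22450 in rpoC1 had -0.36 each in ptac3 and -0.37 and -0.30 in Col-0. The bin at 65151 to 65200, between psbE and petL, had 0.555, 0.559 and 0.556 in IPOD and 0.719, 0.691 and 0.825 in input, and its ratio was -0.37 in ptac3 and -0.04 in Col-0. The last, 9151 to 9200 in trnG (ArthCt092), had -0.34 in ptac3 and -0.23 in Col-0. Each of these stretches had an adjusted p of 0.997 in ptac3 by limma.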

How the data were processed

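The authors deposited, per the labels and the values, a coverage signal for the seedling libraries: the number of reads at each position, as whole numbers without scaling, with 1 column per library (entered as "other" because the column names hold commas). The submitters' processing notes name Trim Galore 0.4.1, Bowtie2, bedtools 2.25.0 and the TAIR10 build; duplicate removal and the placement of reads matching both repeat copies are not given in the sources used here. A read covers many bases, so no count model was used.

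The second copy of the inverted repeat was dropped. Depth per bin of 50 bp, or per gene of at least 70 bp (introns included, from a TAIR10.1 gene table whose coordinates are not printed, 112 of its 129 plastid genes), was divided by the library mean, a pseudocount of 10% of the median bin was added, and values were put on the log2 scale, so fold changes of low bins are understated. limma 3.58.1 (R 4.3.3, lmFit, eBayes) was fitted to the 12 seedling libraries without a block, with Benjamini-Hochberg adjustment over all bins or all genes. Stretches of bins are runs of neighbours with an unadjusted p under 0.05 and one sign. The fits planned for gene starts were not run, because the gene table gives no strand.

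Genes named are the 5 highest and 5 lowest with one sign in each ptac3 pair, all called in Col-0 or for the genotype difference, and a fixed list of 12. Genes outside that rule (rrn4.5S and the runs of called Col-0 bins) were chosen after their values were seen. Members and lists were chosen with earlier results of these data known. Equal numbers were tested as pairs: the deviations of IPOD and input libraries of the same number from their group means correlated over bins with r of 0.764, 0.227 and 0.742 in ptac3, taken as pairs, and 0.265, 0.234 and 0.024 in Col-0, not taken as pairs. The numbers carry no stated meaning in the labels. Between unequal numbers of ptac3, r ran from -0.75 to 0.16. Alternatives were the block, each genotype alone, pseudocounts of 1% and 50%, library centring, trended robust variances, a filter on low depth, bins of 100 bp, and leaving out each library. Leaving out whole ptac3 pairs, and the block with ptac3 alone, were chosen after seeing the data. Leaf libraries were not used here.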

Additional observations from a re-analysis of the deposited data

Results flagged for a closer look

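A difference between the genotypes' IPOD to input ratios marked 3 tRNA genes, all lower in ptac3. The differences were -1.01 for trnQ, -0.71 for trnT and -0.71 for trnM on the log2 scale (limma, adjusted p = 0.0158 for each), and every ptac3 pair lay below every Col-0 pair. In 20 alternatives trnQ met the threshold 14 times (adjusted p between 0.000902 and 0.105), trnT 18 times (between 2.97e-13 and 0.0511) and trnM 16 times (between 0.000371 and 0.105). The highest of these values came without ptac3 pair 3.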

How the results depend on the processing

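In ptac3 IPOD against input, 0 bins were called in each of 23 alternatives and 0 genes in each of 22, with the lowest adjusted p 0.145 for bins (library number as a block) and 0.138 for genes (without ptac3 IPOD library 1). The unadjusted counts ranged from 4 to 232 bins above and 6 to 106 below input, and from 0 to 13 genes above and 0 to 7 below. With 0 called throughout, no change of direction could pass a threshold. Directions below it did change: with centring the median ptac3 ratio was -0.03 in place of 0.02 over bins, and -0.02 in place of 0.03 over genes.

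The genotype difference depended on the setting. For bins, 197 were called with the library number as a block, 42 with trended robust variances, 7 with centring, 6 with a pseudocount of 50%, 3 with bins of 100 bp, 12 without ptac3 pair 1, and 0 to 13 with single libraries left out. For genes, 26 were called with the block, 8 with trended robust variances, 3 with centring, 0 without ptac3 pair 3, 8 without ptac3 pair 1, and 0 to 10 with single libraries left out. The Col-0 gene count of 12 was 37 with the block, 24 with Col-0 alone, 23 with trended robust variances and 4 to 14 with single libraries left out. The causes were not tested. Pairing the ptac3 libraries by number changed no call in ptac3 itself. Centring moved the ptac3 gene median by -0.05 and the genotype difference by -0.12.

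The fits planned for gene starts could not be made. The median 95% interval of a ptac3 bin, set by the spread between libraries, reached 0.28 to either side, and counting noise in the repeat was 0.106 to 0.153 (SD, log2) per ptac3 library.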
